A study of Mus musculus with 32 samples.

Results

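The genes described are 9 of the 32544 genes counted by RNA-Seq in mouse kidney cortex, chosen by symbol as genes of peroxisomal β-oxidation: Abcd3, Ehhadh, Hsd17b4, Acaa1a, Acaa1b, Decr2, Ech1, Crot and Pex11a. Each was measured in 32 mice, 4 in each of 8 groups, and all 9 passed the filter on low counts in every comparison. Of the 9, 7 encode enzymes, while Abcd3 encodes a transporter and Pex11a a membrane protein, so the name covers the pathway and its organelle rather than enzymes alone.

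Peroxisomes shorten fatty acids that mitochondria handle poorly, such as very long-chain, branched-chain and dicarboxylic acids. A transporter of the peroxisomal membrane brings the acyl-CoA in, a bifunctional enzyme hydrates and dehydrogenates the chain, and a thiolase splits off acetyl-CoA. The shortened chain leaves as a carnitine ester for mitochondria. The proximal tubule of the kidney is rich in peroxisomes, and several of these genes are textbook targets of the nuclear receptor PPARα, which pairs with RXR.

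The mice carried the Col4a3tm1Dec allele on the C57BL/6J background, in which the collagen IV α3 chain of the glomerular basement membrane is disrupted. Alport mice were Col4a3-/- and serve as a model of Alport syndrome, a hereditary kidney disease. Control mice were Col4a3+/-, so they too carried 1 disrupted allele and are not wild type. All were 25 weeks old, and male and female mice of both genotypes received either vehicle or nicotinamide riboside (NR), a precursor of NAD+ given in the diet, which makes 8 groups of 4 mice. The tissue was whole cortex, so fewer cells of a type and less RNA per cell cannot be told apart in any of the values.

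Total counts were 16621944 to 27778797 per library. Levels are given as CPM, counts per 1000000 of the library size, which was scaled by TMM, a factor computed from the bulk of the genes. Ddx3y, a Y-linked gene, was at 48.0 to 85.8 CPM in the males and 0.356 to 1.42 CPM in the females. Col4a3 itself was at 48.8 to 83.2 CPM in Alport mice, at 105 to 201 CPM in the vehicle-treated controls of both sexes and the NR-treated female controls, and at 59.4 to 159.6 CPM in NR-treated male controls, 2 of whom fell within the Alport range. Among NR-treated male Alport mice, 2 libraries stood apart. Replicate 1 had 1135 summed CPM of 5 fibroblast markers against 203 to 365 in the other 3 mice, and replicates 1 and 3 had 5379 and 4499 summed CPM of 12 proximal tubule markers against 13369 and 13592 in replicates 2 and 4. The male Alport NR results are therefore also given without each of them.

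Levels between genes were compared per kb of the longest annotated transcript. In vehicle-treated male controls, Ech1 was highest at 355 ± 75.9 CPM per kb (SD, n = 4), followed by Acaa1b at 299 ± 61.5 and Ehhadh at 268 ± 35.8 CPM per kb. A middle set of Abcd3, Hsd17b4, Crot and Acaa1a ranged from 122 to 146 CPM per kb. Decr2 and Pex11a were lowest, at 37.1 ± 4.91 and 36.7 ± 3.98 CPM per kb. In vehicle-treated female controls the order at the top differed, with Acaa1b at 413 ± 55.9, Ech1 at 271 ± 25.4 and Ehhadh at 203 ± 36.9 CPM per kb. The plot of CPM by mouse shows all 9 genes in the 8 groups.

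**Figure D1:**
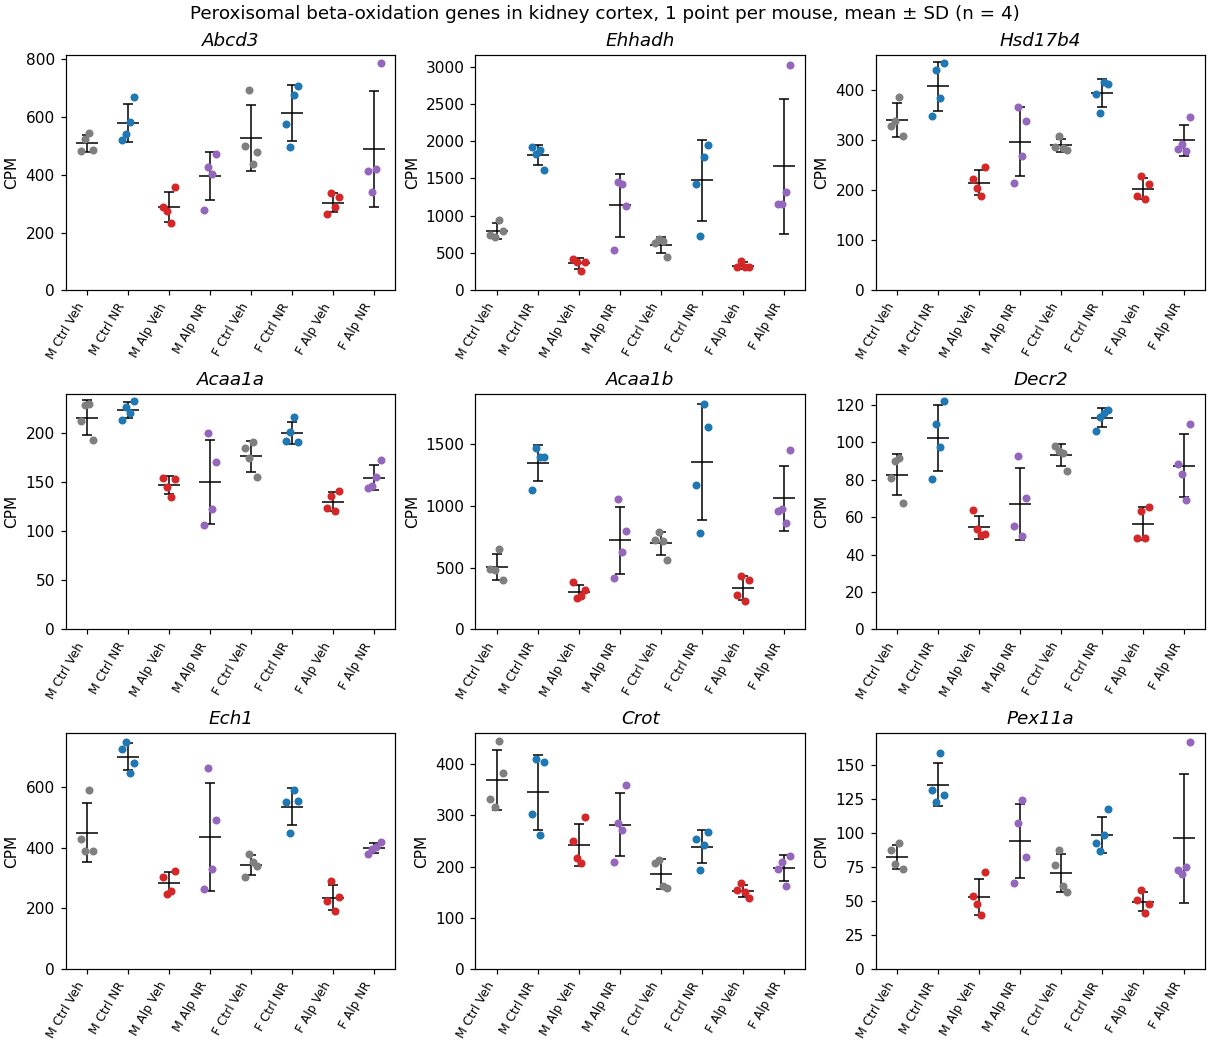
CPM (y axis, linear, from 0) of each gene in the 8 groups (x axis; M, male; F, female; Ctrl, Col4a3+/- control; Alp, Col4a3-/- Alport; Veh, vehicle), with 1 point per mouse, a dash at the mean and bars of ± 1 SD (n = 4). Within each sex, vehicle-treated Alport mice have the lowest mean of the 4 groups for each gene, though in females they overlap the controls for Crot and Pex11a. The NR-treated groups reach furthest above vehicle for Ehhadh, up to 3019.8 CPM, and Acaa1b, up to 1823 CPM.

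Acaa1a and Acaa1b, which both encode the 3-ketoacyl-CoA thiolase of the last step of the cycle, have near-identical reading frames. Both lie on chromosome 9 (GRCm38, the build the labels name as mm10), on opposite strands. RefSeq places Acaa1b at chr9:119148043-119157093 and Acaa1a at chr9:119341028-119350296, 183935 bases apart. Their longest open reading frames are both 1275 bases long and 96.5% identical. Of the 31-base stretches of the annotated Acaa1a transcripts, 35.3% also occur in Acaa1b, and 45.7% of those of Acaa1b occur in Acaa1a, while 46.1% and 57.4% occur in any other gene, so reads from the shared parts may have been assigned to either gene or left out, and their separate values are less certain than those of the other genes. For Ehhadh, Hsd17b4, Pex11a, Abcd3 and Ech1, at most 0.169% of these stretches occur in another gene, and for Crot and Decr2 the share was 4.59% and 8.31%. The promoters of the pair are much less alike, at 49.4% identity over 300-base windows from 250 bases before to 50 after the start site.

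The bases just before the start site are shown for the pair and for Ehhadh. They were chosen because Acaa1b and Ehhadh, which lie on different chromosomes, moved most with NR while Acaa1a moved little. Each stretch is 130 bases long, is given 5′ to 3′ on the strand of the gene, is taken from RefSeq promoters of build GRCm38.p6, and has in capitals the CCAAT box, which on the opposite strand reads ATTGG. For Acaa1a the stretch lies before the start site of its promoter window but inside the span that RefSeq gives the gene, which begins at chr9:119341028.
Acaa1a (chr9:119341164-119341293, plus strand): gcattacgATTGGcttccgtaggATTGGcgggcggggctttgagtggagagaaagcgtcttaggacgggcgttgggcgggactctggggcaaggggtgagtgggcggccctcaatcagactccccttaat
Acaa1b (chr9:119157094-119157223, minus strand): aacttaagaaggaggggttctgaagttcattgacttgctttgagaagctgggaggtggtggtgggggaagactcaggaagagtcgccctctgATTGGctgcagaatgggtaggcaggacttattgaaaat
Ehhadh (chr16:21787835-21787964, minus strand): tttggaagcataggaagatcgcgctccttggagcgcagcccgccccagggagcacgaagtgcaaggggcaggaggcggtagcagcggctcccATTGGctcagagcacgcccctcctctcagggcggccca
Acaa1b and Ehhadh each carry 1 box that begins 38 bases before the start site, and Acaa1a carries 2, which begin 122 and 107 bases before it. How often a box begins at a given position over all genes was not counted.

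Over the whole 300-base windows, both strands searched, CCAAT was found in 37.4% of 32851 windows of all genes and in 4 of 9 windows of the genes described (8 of the 9 genes have a window, and Abcd3 has 2). Acaa1a and Acaa1b held 4 matches each, a number reached by 1.06% of all windows. Ehhadh and Crot held 1, and Ech1, Pex11a, Decr2 and Abcd3 held 0. Of these, Ech1, Pex11a and Decr2 were also called higher with NR in some comparisons below, as was Ehhadh. The GC box GGGCGG was found in 35.7% of all windows and in 6 of these 9. A direct repeat of AGGTCA spaced by 1 base, the textbook form of a PPAR and RXR element and searched with any base between the copies, was found in 0.0396% of all windows and in 0 of these 9, and a single AGGTCA, which the repeat contains, in 16.3% and 0 of 9. These counts describe the letters of a short window and nothing further away.

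The first comparison was of vehicle-treated Alport with vehicle-treated control mice, which asks how the disease genotype changed these genes. In males all 9 were lower in Alport mice at an adjusted p under 0.05 by edgeR's quasi-likelihood test, where 24% of 15286 genes tested were called lower. In females 8 of 9 were lower, where 21.8% of 15709 genes were called lower, and Crot was not called. The median log2 fold change of the 9 was −0.58 in males and −0.51 in females, against −0.0013 over all genes in males and −0.00083 in females.

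Ehhadh encodes the L-bifunctional enzyme, which is both hydratase and dehydrogenase. Its CPM was 736, 709, 948 and 798 in the 4 vehicle-treated male controls and 422, 381, 258 and 385 in the 4 vehicle-treated male Alport mice. The 2 groups did not overlap, and the level in Alport mice was 2.08-fold lower (log2 fold change −1.06 ± 0.15 (SE), adjusted p = 8.07e-05). In females it was 631, 690.3, 654 and 444 CPM in controls and 307, 396, 308 and 308 CPM in Alport mice. Again every Alport mouse was below every control, here 1.79-fold (−0.84 ± 0.15 (SE), adjusted p = 0.000876). Hsd17b4 encodes the D-bifunctional enzyme, which does the same steps on branched chains and bile acid precursors. Its CPM was 328, 339, 387 and 308 in male controls against 222, 204, 188 and 247 in male Alport mice, and 286, 308, 284 and 281 in female controls against 188, 229, 183 and 212 in female Alport mice. It was thus separated by genotype in both sexes with little spread, at 1.49-fold lower in males (−0.58 ± 0.10 (SE), adjusted p = 0.000503) and 1.39-fold lower in females (−0.47 ± 0.09 (SE), adjusted p = 0.00137).

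Of the thiolases, Acaa1a had CPM of 212, 229, 229 and 192 in male controls and 155, 145, 135 and 153 in male Alport mice. In females the values were 185, 174, 191 and 155 and 123, 136, 121 and 141. The change was the smallest of the 9 in males, with a log2 fold change of −0.47 ± 0.08 (SE), adjusted p = 0.000465, and was −0.40 ± 0.09 (SE), adjusted p = 0.00317 in females, without overlap in either sex. Acaa1b had CPM of 485, 479, 650.2 and 404 in male controls and 383, 255, 269 and 317 in male Alport mice, and of 726, 786, 714 and 564 and 279, 431, 232 and 402 in the females. The highest Alport mouse lay just below the lowest control in males, and the fold was 1.55 lower in males (−0.64 ± 0.16 (SE), adjusted p = 0.00481) and 2.02 lower in females (−1.01 ± 0.20 (SE), adjusted p = 0.00197). The difference between the sexes in this effect was 0.41 ± 0.28 (SE), adjusted p = 0.650, and was not called.

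Abcd3, the membrane transporter also known as PMP70 that imports acyl-CoA, was at 483 to 544 CPM in male controls and 233 to 358 in male Alport mice, 1.66-fold lower (−0.73 ± 0.12 (SE), adjusted p = 0.000251). In females it was at 437 to 694 and 264 to 335 CPM, 1.69-fold lower (−0.76 ± 0.14 (SE), adjusted p = 0.00136). Decr2 and Ech1 encode auxiliary enzymes for unsaturated chains, a 2,4-dienoyl-CoA reductase and a dienoyl-CoA isomerase. Their log2 fold changes were −0.51 and −0.59 in males (adjusted p = 0.00131 and 0.00379) and −0.68 and −0.51 in females (adjusted p = 0.000511 and 0.00647), without overlap in either sex. Pex11a, which takes part in the division of peroxisomes, fell by 0.56 on the log2 scale in males (adjusted p = 0.0120) and fell by 0.47 in females (adjusted p = 0.0223), where the highest Alport mouse, at 58.1 CPM, was above the lowest control, at 56.8 CPM. Its call in females was lost without any 1 of Alport replicates 1, 3 and 4 or control replicates 1 and 2 (adjusted p = 0.0535, 0.0571, 0.0544, 0.0590 and 0.0531), and in 1 fit of all 32 mice (adjusted p = 0.0832).

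Crot encodes carnitine octanoyltransferase, which makes the carnitine esters that leave the peroxisome. Its CPM was 333, 316, 445 and 384 in male controls and from 206 to 297 in male Alport mice, without overlap (−0.52 ± 0.14 (SE), adjusted p = 0.00588). In females it was 207, 214, 162 and 157 and 153, 168, 149 and 139. The female groups overlapped, and the change of −0.24 ± 0.11 (SE), adjusted p = 0.0916 did not pass, although it did without Alport replicate 2 (adjusted p = 0.0424) or control replicate 4 (adjusted p = 0.0384). Whether its effect differed between the sexes was tested directly, with a difference of −0.25 ± 0.19 (SE), adjusted p = 0.691. By non-overlap of the 4 and 4 mice, 9 of 9 genes were lower in males (28.5% of all genes tested) and 7 of 9 in females (23.7%), all but Pex11a and Crot.

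The tubule and its surroundings moved too. The summed CPM of 12 proximal tubule markers was 18927 to 20633 in vehicle-treated male controls and 6672 to 10840.3 in vehicle-treated male Alport mice, and 14642 to 16818 and 6277 to 10024 in females. In males 12 of the 12 were called lower, and in females 11 of 12, with Slc7a13, named after its value was seen, called higher at 0.66. The 5 fibroblast markers summed to 46.6 to 67.6 CPM in male controls and 586 to 912 CPM in male Alport mice, and the 6 immune cell markers to 112 to 126 and 775 to 1021 CPM. Their part in the lower levels of the 9 genes was not tested.

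The second comparison, NR against vehicle within Alport mice, asks whether the precursor changed these genes in diseased cortex. In females Ehhadh, Acaa1b and Ech1 were higher, 3 of 9, where 0.382% of 15712 genes were called higher, and the log2 fold change of all 9 was above 0 with a median of 0.70 against 0.00049 over all genes. In males 0 of 9 were called by edgeR, where 0 of 15500 genes (0%) passed and 777 had an unadjusted p under 0.05, while DESeq2 called 2 of the 9 among 62 genes (0.400%). The 1 fit of all 32 mice also called 2 of the 9, among 77 of 16469 genes (0.468%). The edgeR count of 0 on 8 mice changed with 1 library left out. Without NR replicate 1, 2 of the 9 and 374 of 15662 genes (2.39%) were called, and without NR replicate 3, 0 of the 9 and 1 gene. All 9 log2 fold changes were above 0 in the males as well, with a median of 0.46 against 0.014. By non-overlap, 8 of 9 genes were higher in females (5.14% of all genes), all but Crot, and 2 of 9 in males (1.97%), Ehhadh and Acaa1b.

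Ehhadh CPM was 1151, 1151, 1322 and 3019.8 in the 4 NR-treated female Alport mice, against 307 to 396 on vehicle. Each was above every vehicle-treated Alport and control female, and replicate 4 stood far above the rest of its group. The fold was 5.07 (2.34 ± 0.33 (SE), adjusted p = 0.0190). In NR-treated male Alport mice it was 539, 1455, 1420.5 and 1135 CPM against 258 to 422 on vehicle. Here replicate 1 lay close to the vehicle group and the other 3 well above it, and the fold of 3.13 (1.65 ± 0.33 (SE), adjusted p = 0.454) did not pass. Without replicate 1 the change was 1.88, with an adjusted p of 0.0238, and without replicate 3 it was 1.53, with an adjusted p of 0.750.

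Acaa1b CPM was 958, 972, 865 and 1451 in NR-treated female Alport mice against 232 to 431 on vehicle, 3.17-fold higher (1.66 ± 0.24 (SE), adjusted p = 0.0190). In the NR-treated males it was 416, 1057, 626 and 794 against 255 to 383. The male groups did not overlap, but by a narrow margin at replicate 1, and the log2 fold change was 1.23 ± 0.29 (SE), adjusted p = 0.670, or 1.42 with an adjusted p of 0.0285 without that mouse and 1.30 with an adjusted p of 0.912 without replicate 3. The other thiolase gene, Acaa1a, was at 144, 146, 155 and 173 CPM in NR-treated females and 106, 199.6, 123 and 171 in NR-treated males. These are small shifts from vehicle, of 0.26 ± 0.10 (SE), adjusted p = 0.233 in females and 0.02 ± 0.20 (SE), adjusted p = 0.994 in males, and neither passed.

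Ech1 CPM was 378, 395, 403 and 420.0 in NR-treated female Alport mice against 223, 289, 192 and 236 on vehicle (0.77 ± 0.13 (SE), adjusted p = 0.0379). The NR values were tightly grouped and above every vehicle value. In NR-treated males the gene spread widely, at 263, 663, 329 and 492 CPM, and the change of 0.62 ± 0.28 (SE), adjusted p = 0.943 did not pass. Hsd17b4 was at 282, 293, 279 and 347 CPM in the NR-treated females, all above the highest vehicle mouse (0.57 ± 0.12 (SE), adjusted p = 0.0783), and at 215, 368, 268 and 339.6 CPM in the males (0.46 ± 0.20 (SE), adjusted p = 0.943). Decr2, Abcd3 and Pex11a were above vehicle in every NR-treated female, with log2 fold changes of 0.64, 0.70 and 0.97 and adjusted p of 0.124, 0.211 and 0.177. NR replicate 4 stood above its group for Abcd3 and Pex11a, at 788 and 167 CPM against at most 419 and 75.0 CPM. In fits without 1 mouse the log2 fold change ran from 0.37 to 0.84 for Abcd3 and from 0.56 to 1.09 for Pex11a. For Crot the log2 fold change was 0.38 in females and 0.21 in males. Without NR replicate 1 the male log2 fold changes were 0.80 for Ech1, 0.59 for Hsd17b4, 0.16 for Acaa1a, 0.33 for Crot, 0.98 for Pex11a, 0.58 for Abcd3 and 0.37 for Decr2, and the lowest adjusted p among these was 0.0511, for Pex11a. Without NR replicate 3 these 7 genes ranged from 0.11 to 0.74, all with an adjusted p of 0.994.

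The female calls depended on which mice were included. Without NR replicate 3 or vehicle replicate 1, 3 or 4, no gene of the 9 was called, with adjusted p for Ehhadh of 0.0538, 0.0927, 0.0799 and 0.0822 and for Acaa1b of 0.0524, 0.0866, 0.0641 and 0.0577, in that order. In these fits 24, 9, 14 and 10 genes were called over the whole table, at most 0.150%. Ech1 was lost without those mice or NR replicate 2 or 4, with adjusted p from 0.0530 to 0.155. The log2 fold change of Ehhadh was 2.30 to 2.44 in the 4 fits that lost its call. Over all 8 fits without 1 mouse it stayed between 1.88 and 2.48. DESeq2 called 7 of the 9 in females, where it called 4.63% of all genes in either direction, and 1 fit of all 32 mice called 6, where it called 1.46%.

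The marker sums are given beside these changes. Proximal tubule markers summed to 7645 to 9234 CPM in NR-treated and 6277 to 10024 CPM in vehicle-treated female Alport mice, and to 4499 to 13592 and 6672 to 10840.3 CPM in males. Fibroblast markers summed to 154 to 605 against 447 to 775 CPM in females and to 203 to 1135 against 586 to 912 CPM in males. Immune cell markers summed to 149 to 880.0 against 669 to 1193 CPM in females and to 496 to 1257 against 775 to 1021 CPM in males, the highest value in NR-treated males again being replicate 1. Their part in the changes of the 9 genes was not tested. The 5 adipocyte markers summed to at most 5.98 CPM in every mouse.

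**Figure D2:**
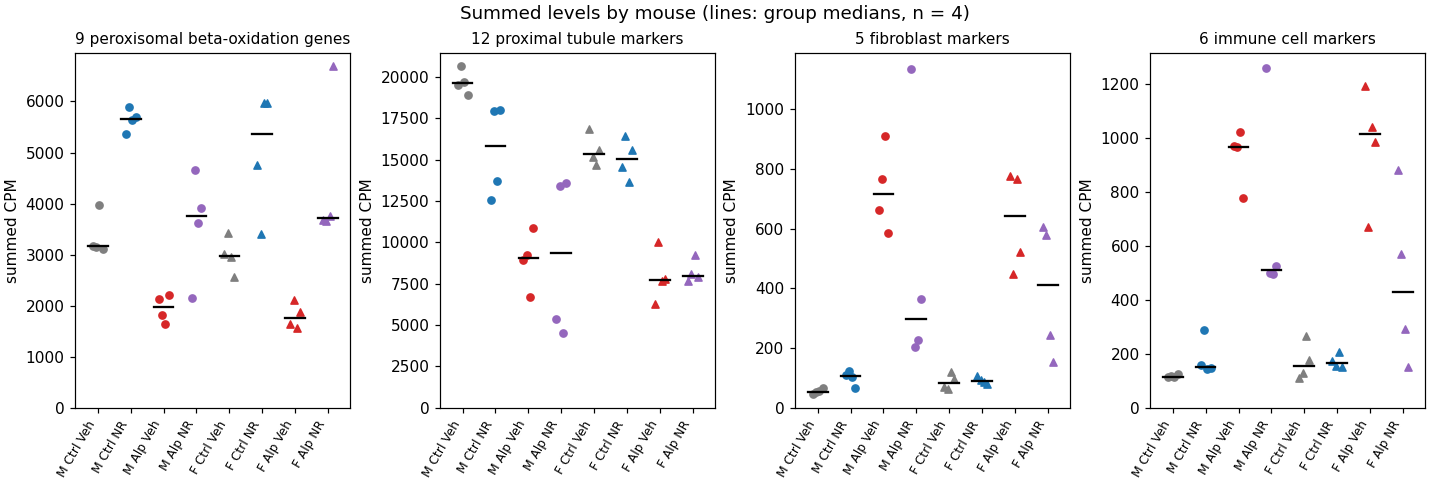
Summed CPM (y axes, linear, from 0) of the 9 genes and of 3 marker lists in each mouse (circles, males; triangles, females), by group (x axis, named as in the plot of CPM by mouse), with lines at group medians (n = 4). The sum of the 9 genes has medians of 1756 and 3716 CPM in vehicle-treated and NR-treated female Alport mice, while the proximal tubule sum has medians of 7707 and 7970.5 CPM.

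NR was also compared with vehicle within control mice, the heterozygous carriers, to ask whether it acted without the Alport genotype. In males 4 of 9 genes were higher, Ehhadh, Acaa1b, Pex11a and Ech1, where 2.97% of 14696 genes were called higher. In females 3 of 9 were higher, Ech1, Hsd17b4 and Decr2, where 4% of 14951 genes were. Ech1 was the only gene of the 9 called in both. By non-overlap, 4 of 9 genes were higher in males (7.34% of all genes), and 4 of 9 in females (8.69%), where Ehhadh joined the 3 called.

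Ehhadh CPM was 1916, 1828, 1879 and 1618 in the NR-treated male controls against 709 to 948 on vehicle. The NR group was narrow and well apart from vehicle, at 2.28-fold (1.19 ± 0.12 (SE), adjusted p = 0.000982). In the NR-treated female controls it was 1430.3, 733, 1786 and 1950.3 CPM against 444 to 690.3. Replicate 2 lay just above the highest vehicle mouse, and the fold of 2.42 (1.28 ± 0.32 (SE), adjusted p = 0.0731) did not pass, but did without replicate 2 (adjusted p = 0.00163). Acaa1b CPM was 1129.7, 1471, 1393 and 1392 in NR-treated males against 404 to 650.2 on vehicle (1.42 ± 0.15 (SE), adjusted p = 0.00114). In NR-treated females it was 1167, 781, 1823 and 1640.1 against 564 to 786 (0.95 ± 0.27 (SE), adjusted p = 0.0990). Female replicate 2 was again the lowest of its group, and here it lay within the vehicle range. Acaa1a was at 214 to 232 CPM in NR-treated males and 191 to 216 in NR-treated females, with log2 fold changes of 0.06 and 0.17 and adjusted p of 0.716 and 0.186.

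Ech1 CPM was 726, 749.8, 648 and 681 in NR-treated male controls against 428, 390.5, 592 and 390.4 on vehicle (0.65 ± 0.14 (SE), adjusted p = 0.0288), and 550.3, 448, 590.4 and 556 against 302, 379.5, 353 and 339 in females (0.63 ± 0.09 (SE), adjusted p = 0.00268). The male call was lost without NR replicate 1 or 3 or vehicle replicate 1, 2 or 4 (adjusted p = 0.0678, 0.0589, 0.102, 0.102 and 0.0894). Pex11a was at 123 to 158 CPM in NR-treated males and 73.2 to 92.3 on vehicle (0.72 ± 0.11 (SE), adjusted p = 0.00844, but 0.0638 in 1 fit of all 32 mice), and in females the change was 0.48 ± 0.14 (SE), adjusted p = 0.0859. Hsd17b4 and Decr2 rose in females, at 0.43 ± 0.07 (SE), adjusted p = 0.00406, and 0.27 ± 0.06 (SE), adjusted p = 0.0241. In males Hsd17b4 was at 0.27 ± 0.11 (SE), adjusted p = 0.169, and Decr2 at 0.32 ± 0.13 (SE), adjusted p = 0.176, so the change of Decr2 was no smaller there, and neither gene was called in the interaction of NR with sex. The call of Decr2 was lost without NR replicate 3 or 4 or vehicle replicate 4 (adjusted p = 0.0624, 0.0640 and 0.0562). Without NR replicate 2, 6 of 9 genes were called in females, where 5.23% of all genes were, and the 1 fit of all 32 mice called 0, where it called 20 of 16469 genes (0.121%).

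For Abcd3 the change was 0.19 ± 0.10 (SE), adjusted p = 0.265 in males and 0.21 ± 0.16 (SE), adjusted p = 0.488 in females. Crot was the 1 gene with a log2 fold change below 0 in males, at −0.09 ± 0.16 (SE), adjusted p = 0.761, against 0.36 ± 0.12 (SE), adjusted p = 0.110 in females. The difference between the sexes in this response of Crot was −0.47 ± 0.22, with an adjusted p of 0.306. Proximal tubule markers summed to 12576 to 17983 CPM in NR-treated male controls against 18927 to 20633 on vehicle, and to 13660.2 to 16421 against 14642 to 16818 in females. Of these 12 markers, 1 was called lower with NR in male controls (1.48% of all genes), with a median log2 fold change of −0.24. In female controls 1 was called lower (2.39% of all genes) and 1 higher (4%). Endothelial markers were higher in NR-treated male controls, 5 of 5 called, with sums of 273 to 334 against 201 to 215 CPM. Fibroblast markers were also higher for 2 of 5, with sums of 65.5 to 123 against 46.6 to 67.6 CPM and a median log2 fold change of 0.77, and of the immune cell markers 0 of 5 tested were called by edgeR, with a median of 0.69 and sums of 142 to 289 against 112 to 126 CPM. The part of these cell types in the changes of the 9 genes was not tested.

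**Figure D3:**
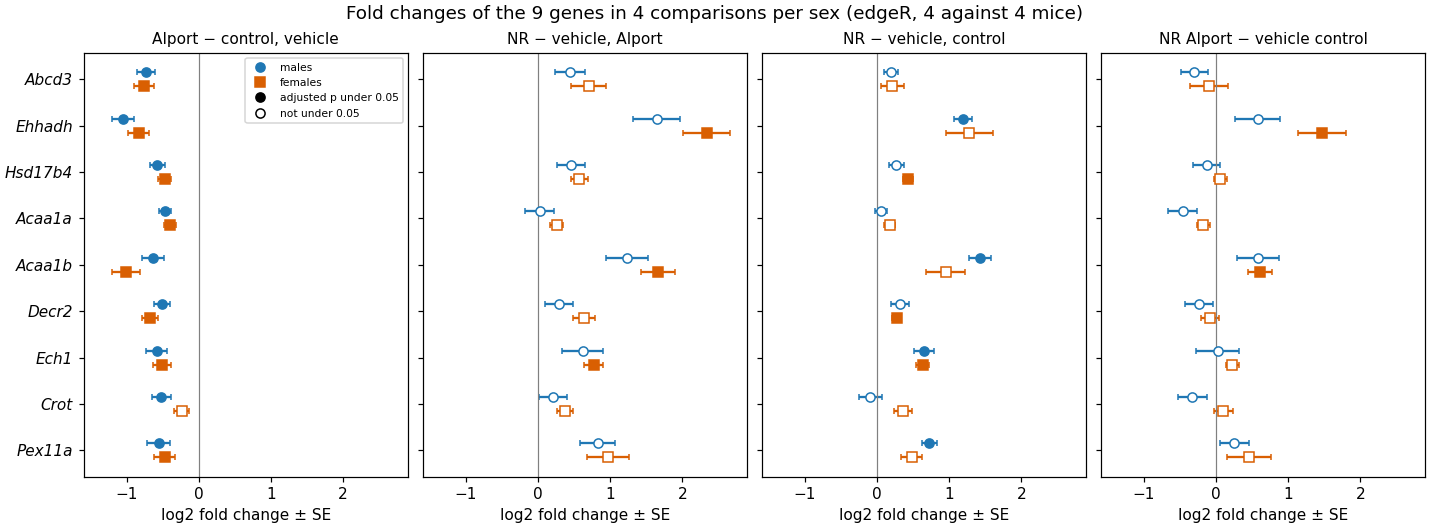
Log2 fold change ± SE (x axis, linear) of each gene (y axis) in 4 comparisons (panels; circles, males; squares, females; filled, adjusted p under 0.05 by edgeR), each from 4 against 4 mice. Ehhadh and Acaa1b lie furthest to the right under NR in both genotypes, at up to 2.34 for Ehhadh in female Alport mice, while Acaa1a stays between 0.02 and 0.26.

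NR-treated Alport mice were then set against vehicle-treated controls, to ask how far the treated diseased cortex lay from the untreated carrier. These comparisons share their vehicle-treated controls with the genotype comparison and their NR-treated mice with the NR comparison. In females Ehhadh and Acaa1b were higher than in controls, 2 of 9, where 11.5% of 15381 genes were called higher. In males 0 of 9 were called by edgeR in either direction, where 21.1% of 15077 genes were called and 5550 had an unadjusted p under 0.05. DESeq2 also called 0 of the 9 in males, where it called 29.9% of all genes, and 1 fit of all 32 mice called 1, where it called 41.4%. Without NR replicate 1, 1 of the 9 and 16.4% of all genes were called, and without NR replicate 3, 0 of the 9 and 18.6%.

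For Ehhadh the log2 fold change against controls was 1.46 ± 0.33 (SE), adjusted p = 0.0152 in females, where the lowest NR-treated Alport mouse (1151 CPM) was above the highest control (690.3 CPM). In males it was 0.57 ± 0.31 (SE), adjusted p = 0.203, and without replicate 1 it was 0.78 with an adjusted p of 0.0235. For Acaa1b it was 0.61 ± 0.17 (SE), adjusted p = 0.0243 in females and 0.58 ± 0.29 (SE), adjusted p = 0.176 in males, or 0.75 with an adjusted p of 0.0590 without NR replicate 1. The female call of Acaa1b was lost without control replicate 1, 3 or 4 (adjusted p = 0.0594, 0.0517 and 0.0692). Acaa1a lay on the other side, at −0.46 ± 0.20 (SE), adjusted p = 0.130 in males and −0.18 ± 0.09 (SE), adjusted p = 0.175 in females, and passed in males without NR replicate 2 (adjusted p = 0.0389). Both genes were above every control in females (11.7% of all genes), and Abcd3 was the 1 gene of the 9 lower without overlap in males (17.8% of all genes), at −0.30 ± 0.19 (SE), adjusted p = 0.273. The other 5 genes had log2 fold changes from −0.33 to 0.25 in males and from −0.08 to 0.46 in females, and these values do not show that treated Alport mice and controls were alike.

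Whether the response to NR depended on genotype or sex was tested as an interaction in 16 mice each. None of the 9 genes was called by edgeR in any of the 5 interactions, where the shares called over all genes were 0.495% (sex by genotype), 0% (NR by genotype in males), 0% (NR by genotype in females), 0% (NR by sex in Alport mice) and 0.624% (NR by sex in controls). Unadjusted p under 0.05 was reached by 1910, 1395, 1484, 361 and 2398 genes in these, and by 2 of the 9 genes in 1 interaction each, Ehhadh for NR by genotype in females and Crot for NR by sex in controls. DESeq2 called 0 of the 9 in all 5 as well, where it called at most 3.28% of all genes. With any 1 mouse left out, 0 of the 9 were called, NR-treated male Alport replicates 1 and 3 included. Over all genes, edgeR called 784 of 15942 genes (4.92%) for NR by genotype in males without NR-treated Alport replicate 1. The 0% by edgeR with all mice thus depends on that library, and DESeq2 called 20 of 15800 genes (0.127%). The largest difference was that of Ehhadh in females, whose response was greater in Alport than in control mice by 1.04 ± 0.46 (SE), adjusted p = 0.524. For Acaa1b in females the difference was 0.70 ± 0.36 (SE), adjusted p = 0.568, and in males it was −0.21 ± 0.34 (SE), adjusted p = 0.890. For Ehhadh in males it was 0.44 ± 0.36 (SE).

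Males and females were also compared on vehicle. Among vehicle-treated controls, 3 of 9 genes were called, which is near the share over all genes, 31.5% of 14990. Crot was higher in males, with the 4 males at 316 to 445 CPM and the 4 females at 157 to 214 CPM (0.97 ± 0.13 (SE), adjusted p = 0.000255). Its call held when any 1 mouse was left out. Acaa1a was higher in males by 0.26 ± 0.08 (SE), adjusted p = 0.0230, and Acaa1b was lower in males, at −0.49 ± 0.14 (SE), adjusted p = 0.0249. The thiolase calls were lost in some fits without 1 mouse, for Acaa1a without female replicate 4 or male replicate 2 or 3 (adjusted p = 0.0648, 0.0601 and 0.0555) and for Acaa1b without female replicate 1, 2 or 3 or male replicate 1, 2 or 4 (adjusted p = 0.0698, 0.0650, 0.0665, 0.0620, 0.0652 and 0.0511). Ehhadh and Ech1 were higher in each of the 4 males than in the 4 females without passing, at 0.37 ± 0.14 (SE), adjusted p = 0.0597, and 0.36 ± 0.13 (SE), adjusted p = 0.0562. Non-overlap with higher levels in males held for 4 of the 9 genes (18% of all genes), namely Crot, Acaa1a, Ehhadh and Ech1. Without female replicate 2, 6 of the 9 were called, where 28.4% of all genes were.

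Since the thiolase genes moved unequally, Acaa1b was also taken as a share of the counts of the pair in each mouse. In male controls the share was 69.6, 67.7, 73.9 and 67.7% on vehicle and 84.1, 86.7, 86.3 and 85.7% on NR. In male Alport mice it was 71.2, 63.8, 66.6 and 67.5% on vehicle and 79.6, 84.1, 83.6 and 82.3% on NR. Within both genotypes the NR-treated males lay above the vehicle-treated males without overlap, with means of 69.7% ± 2.92 and 85.7% ± 1.14 in controls and 67.3% ± 3.08 and 82.4% ± 2.0 in Alport mice (SD, n = 4). In female controls the share was 79.7, 81.9, 78.9 and 78.4% on vehicle and 85.9, 79.5, 89.4 and 89.6% on NR, and in female Alport mice 69.4, 76.1, 65.7 and 74.1% and 86.9, 86.9, 84.8 and 89.4%. Female controls started higher and overlapped with their NR group through replicate 2, while the female Alport groups did not overlap, with means of 71.3% ± 4.66 and 87.0% ± 1.87. In male Alport replicate 1 on NR, which was low in CPM of both genes, the share of 79.6% was still above every vehicle-treated male. This share is given as a description, and reads shared by the pair could shift it.

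**Figure D4:**
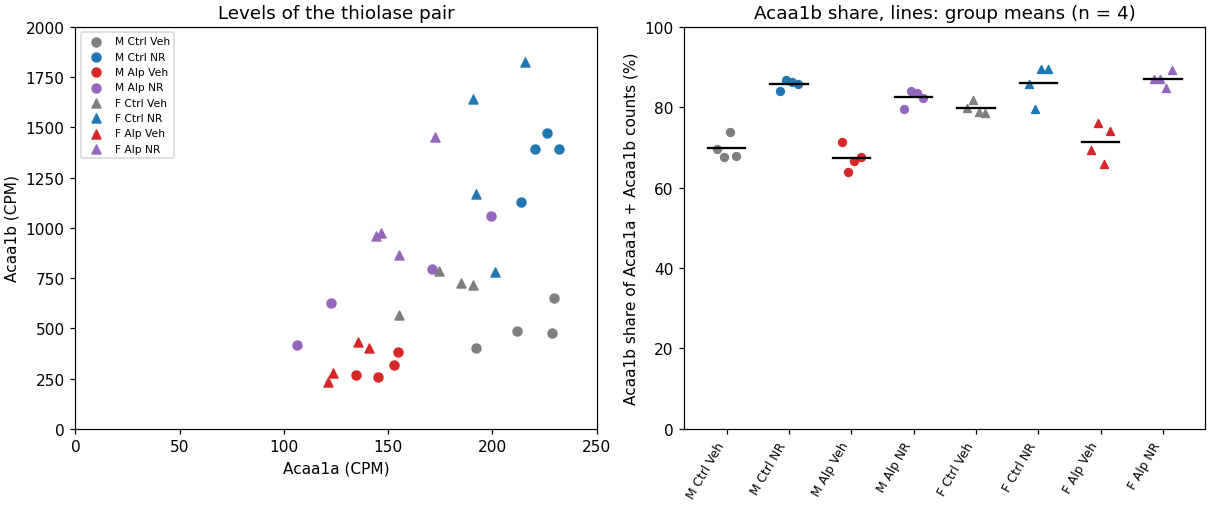
Left, CPM of Acaa1b (y axis) against Acaa1a (x axis), 1 point per mouse, colored by group (circles, males; triangles, females). Right, Acaa1b as a percent of the counts of both genes (y axis, from 0 to 100) by group (x axis), with lines at the mean of 4 mice. All NR shares are at or above 79.5%.

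The 9 genes varied together across mice to different degrees. Over the 32 mice, which share genotype, sex and treatment effects, Pearson's r of log2 CPM with the mean of the other 8 (each standardised) was highest for Hsd17b4, at 0.981, and next for Ech1, at 0.932. It was lowest for Crot, at 0.568, followed by Acaa1a at 0.812. When group means were removed, so that only differences between mice of 1 group remained, r was 0.935 for Hsd17b4, 0.893 for Acaa1b and 0.636 for Crot. Among pairs, Hsd17b4 with Ech1 had the highest r over 32 mice, 0.943, followed by Ehhadh with Pex11a and Ehhadh with Acaa1b, both 0.917, while Crot with Decr2 had the lowest, 0.312. Within groups, Ehhadh and Pex11a still had an r of 0.809, whereas Ehhadh and Decr2 had 0.380. These values are descriptions, and mice within a group include NR-treated male Alport replicates 1 and 3, which stood apart.

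**Figure D5:**
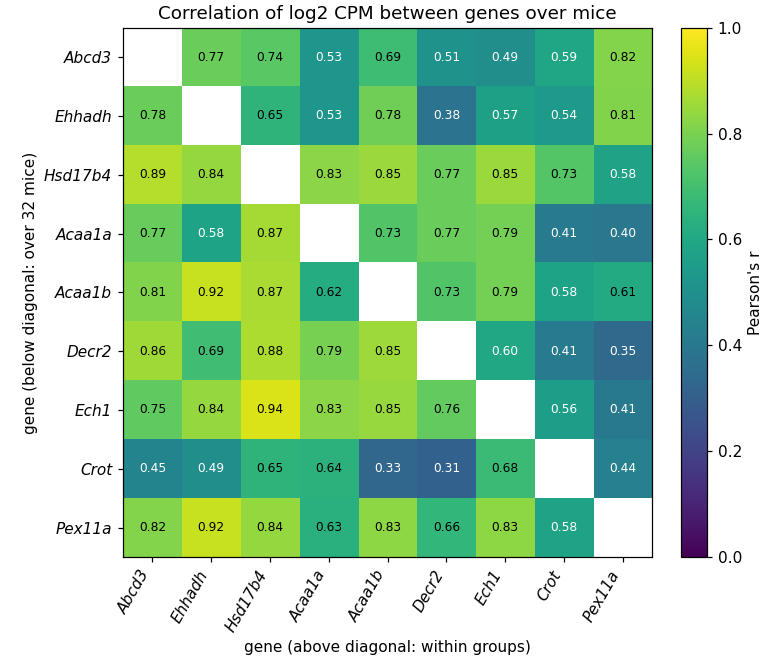
Pearson's r of log2 CPM for each pair of genes (rows and columns; color scale from 0 to 1), over the 32 mice below the diagonal and after removal of the 8 group means above it. The row and column of Crot hold the lowest values over 32 mice, down to 0.312 with Decr2.

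Of 16469 genes tested over the 8 groups, those whose log2 CPM was most like the mean of the 9 over 32 mice were Etfdh (r = 0.974), Cpt2 (0.971), Cat (0.969), Decr1 (0.969), Crat (0.968), Acadvl (0.959), Hsdl2 (0.956) and Aldh9a1 (0.943). Etfdh, Cpt2, Decr1 and Acadvl encode mitochondrial proteins of fatty acid oxidation, Cat encodes the catalase that breaks down hydrogen peroxide, and Crat encodes carnitine acetyltransferase. After removal of group means, Cpt2 ranked 1 (r = 0.928), Etfdh 2 (0.923) and Crat 3 (0.900).

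Other peroxisomal genes were counted from lists of general knowledge. In Alport mice on vehicle, 18 of 20 tested genes of the remaining β-oxidation list were lower in both sexes (median log2 fold change −0.81 in males and −0.63 in females), and Abcd2 was higher in both (1.23 and 0.81). Acot5 was not tested for its low counts. Among the lower were Eci3, an enoyl-CoA isomerase (−1.32 in males and −1.18 in females), Slc27a2, a very long-chain acyl-CoA synthetase (−1.17 and −0.96), and Acot3, an acyl-CoA thioesterase (−0.93 and −1.36). Other peroxisomal enzymes were lower for 16 of 20 genes in males and 17 of 20 in females, such as Hao2 and Cat, and the peroxins and division factors for 17 of 18 and 15 of 18 genes, with smaller medians of −0.43 and −0.38. Under NR in Alport mice, 1 of 20, 1 of 20 and 0 of 18 genes of these lists were called higher in females, namely Acot3 (1.02, adjusted p = 0.0131) and Ephx2, an epoxide hydrolase (1.02, adjusted p = 0.0122), with medians of 0.33, 0.29 and 0.17. In males 0 were called, with medians of 0.15, 0.06 and 0.09, below the 0.46 of the 9 genes.

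Under NR in controls, 2 of 19 further β-oxidation genes were higher in males, Acot4 and Acot3, and 1 was lower, Pecr. Of all genes, 1.48% were called lower in male controls. In female controls 5 of 20 were higher and 0 lower, with a median of 0.16. Other peroxisomal enzymes were higher for 2 of 20 genes and lower for 1 in male controls and higher for 8 of 20 in female controls, and the peroxins and division factors for 0 of 18 and for 1 of 18, Fis1. Cat and Hacl1, the lyase of α-oxidation, were higher in controls of both sexes, at 0.48 and 0.49 for Cat and 1.34 and 0.31 for Hacl1. NR-treated Alport mice were also set against vehicle-treated controls, where 2 of the 9 genes were higher in females. There 10 of 20 further β-oxidation genes were lower in females and 4 of 20 in males. Of all genes, 11.4% were called lower in females and 6.75% in males. Slc27a2 was at −1.25 in males and −1.08 in females. Hao2, a hydroxyacid oxidase, was at −1.86 and −1.94 in that comparison (adjusted p = 0.0113 and 0.000640). The lists were described by counts and medians, and no test of one list against another was made.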

How the data were processed

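RNA was measured by RNA-Seq of poly(A) libraries from kidney cortex of 32 mice, 4 in each of 8 groups taken from the sample labels. The deposited values are raw read counts per gene, which the authors made on build mm10 with BioJupies, an online pipeline, per the study's methods; its version, aligner and settings are not given in the sources used here. The total per library limits precision for low genes.

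The counts were tested with edgeR 4.0.16 in R 4.3.3, using TMM scaling, filterByExpr with a minimum count of 10, the robust quasi-likelihood F test, and Benjamini-Hochberg adjustment over all genes tested, with a threshold of 0.05. Each comparison was fitted on its own 8 mice, and interactions on 16. The SE of a log2 fold change was derived from the test, as its absolute value divided by the square root of F. Alternatives were DESeq2 1.42.0, 1 fit of all 32 mice, RLE size factors, no filter on low counts, the replicate number as a block, each mouse left out in turn and, added after seeing the data, a fit that is not robust. The scripts were tested on simulated data. Correlations used log2 CPM with a prior count of 2.

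Nothing in the sources says that mice with the same number share a litter or day, and the deviations of 36 same-numbered pairs had r from −0.167 to 0.261, so the numbers were not taken to pair mice. No 2 libraries of a group agreed within sampling noise.

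The genes described and all lists were chosen with earlier results of these data known. Of other peroxisomal lists, at most 4 genes per list and comparison were named, those called in both sexes first and then by size of change, and genes in a count of 5 or fewer were named after their values were seen. The 8 most alike genes were taken by correlation with the mean of the 9. Marker lists of cell types were described by counts and summed CPM only. Promoter sequences and gene positions were from RefSeq, and lengths and 31-base stretches from GENCODE transcripts read with Biopython 1.88 in Python 3.11.15. A result that needs an item withheld for evaluation is not reported here.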

Additional observations from a re-analysis of the deposited data

Results flagged for a closer look

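Each gene was checked in each of the 8 groups for a mouse far from the other 3, by the ratio of its gap to the range of the group against Dixon's 95% critical value, and 3 of 72 groups passed it. Chance flags about 1 in 20 groups. Ehhadh was at 3019.8 CPM in NR-treated female Alport replicate 4, far from the nearest mouse of its group at 1322 CPM. In the same mouse, Pex11a was at 167 CPM against 75.0 CPM in the nearest mouse. Ehhadh was at 396 CPM in vehicle-treated female Alport replicate 2 against 308 CPM in the nearest mouse.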

How the results depend on the processing

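Of 1134 fold changes of single genes recomputed under alternatives, 1015 kept their direction and their side of the threshold, 53 lost a call, 46 gained one and 20 changed sign. With each mouse left out in turn, the number of the 9 genes called ranged from 9 to 9 in males and 7 to 9 in females for Alport against control, from 0 to 2 and 0 to 3 for NR in Alport mice, from 3 to 4 and 2 to 6 for NR in controls, from 0 to 1 and 1 to 2 for NR-treated Alport mice against vehicle-treated controls, from 2 to 6 between the sexes, and from 0 to 0 in the 5 interactions. The share of all genes called then ran from 44.7% to 51.3% in males and 38.2% to 47.9% in females for Alport against control. For NR in Alport mice it ran from 0% to 2.39% and 0.0572% to 1.02%. For NR in controls it was 0.744% to 12.6% and 2.78% to 5.67%. For NR-treated Alport mice against vehicle-treated controls it was 9.29% to 25.8% and 14.3% to 30.9%. Between the sexes it was 25.4% to 29.3%, and in the interactions 0% to 4.92%. DESeq2 called 2 genes for NR in male Alport mice, where it called 0.400% of all genes, and 7 in female Alport mice (4.63%). It called 7 for NR in female controls (9.99%) and 6 between the sexes (34.3%). The 1 fit of all 32 mice called 2, 6, 0 and 1 in these, 3 for NR in male controls, 7 for Alport against control in females, and 1 in each sex for NR-treated Alport mice against vehicle-treated controls. The fit that is not robust, chosen after seeing the data, called 6 for NR in female controls (6.18%) and 5 between the sexes (31.7%). With the replicate number as a block, 0 genes were called for NR-treated female Alport mice against vehicle-treated controls and 5 between the sexes, and since the numbers do not pair the mice, a call lost under the block is not read as a weaker effect. The cause of these shifts was not tested.

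Changes of sign were all of small values. For Acaa1a under NR in male Alport mice the block gave −0.023, and the fits without 1 mouse ran from −0.15 to 0.16. For Crot under NR in male controls they ran from −0.19 to 0.013. For Ech1 in NR-treated male Alport mice against vehicle-treated controls, DESeq2 gave −0.0076, RLE scaling −0.0077, the fit of all 32 mice −0.045 and the block −0.058, and fits without 1 mouse ran from −0.26 to 0.18. In the same comparison in females they ran from −0.40 to 0.067 for Abcd3 and from −0.18 to 0.016 for Decr2, and between the sexes from −0.15 to 0.093 for Abcd3. An adjusted p also depends on how many genes pass in its comparison.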
